A study of Mus musculus with 9 samples.

Results

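The genes of DNA replication and of the step from G1 into S phase were followed in mouse germinal center (GC) B cells with floxed or intact Foxo1. The list held 44 genes, named by symbol and sorted into 9 roles, and each gene was read through its brightest probe set with a single gene symbol. Of these genes, 43 had such a probe set, all 43 passed the filter on dim signals, and they stood among 10331 genes tested in all; the expression of Chaf1a was not analysed here. The data were 9 Affymetrix mouse expression arrays from 3 genotypes with 3 arrays each. The KO group was FOXO1f/f with Cg1-Cre (2 floxed alleles), the HET group FOXO1f/+ with Cg1-Cre (1 floxed allele) and the WT group FOXO1+/+ with Cg1-Cre. All 9 animals thus carried the recombinase, which is expressed from an antibody constant region locus and acts only in B cells that have switched that locus on, so that cells which had not recombined could remain in a sorted sample. The mice were 10 weeks old, had been injected with sheep red blood cells in 2 rounds, and gave their spleens on day 12, when B220 high, PNA high, CD95 high cells were sorted. Per the sample labels each array held 1 animal while the text on the design mentions pools of splenic mononuclear cells. The labels give no strain, sex or litter.

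DNA is copied once per cell cycle. Origins are bound by the origin recognition complex and loaded with the MCM helicase with the help of CDC6 and CDT1. CDC45 and GINS turn that helicase on, and polymerase alpha with primase lays down primers that polymerases delta and epsilon extend, held on DNA by the PCNA clamp. E2F factors, released as cyclin E and its kinase act on RB, switch many of these genes on as cells leave G1. GC B cells, above all those of the dark zone, are among the fastest dividing cells of the body, so these genes are strongly used there. FOXO1 is a transcription factor that leaves the nucleus when AKT phosphorylates it, and it is known for its part in the GC dark zone.

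Foxo1 itself had signals of 983, 1392 and 727 in KO cells, 3633, 3581 and 3479 in HET cells and 5432, 5299.9 and 5616 in WT cells, in MAS5 units on a linear scale. The 3 genotypes did not overlap, with a KO mean at 19.0% and a HET mean at 65.4% of the WT mean; whether the probes fall inside the floxed stretch was not analysed here. The GC B cell markers Bcl6 (9376 ± 267, 9067 ± 145 and 9163 ± 1358 in KO, HET and WT cells; SD, n = 3 each) and S1pr2 were well above the median of each array, while the sorting marker Fas was higher in KO cells than in WT cells (log2 change 0.30, limma adjusted p = 0.0131). Of 7 GC B cell markers with a probe set 3 were called lower in KO than in WT (Gcsam, Rgs13 and Neil1), with a summed signal of 31553 to 32526 on KO arrays, 36168 to 36984 on HET arrays and 34999.8 to 38286 on WT arrays. Of 6 myeloid cell markers 3 were called higher in KO than in WT (Lyz2, Csf1r and Cd68), with a summed signal of 1059 to 1278 on KO arrays, 529.8 to 1058 on HET arrays and 457.7 to 710.0 on WT arrays; Itgam and Cd14 were under the median of all 9 arrays. Of 6 plasma cell markers with a probe set, 3 were called higher in KO (Prdm1, Sdc1 and Irf4; summed signal 17412 to 19719 on KO arrays, 15938 to 17356 on HET arrays and 16910 to 17246 on WT arrays; Tnfrsf17 was under the median of all 9). Of 3 naive B cell markers Fcer2a was called lower (summed signal 1416 to 1557 on KO arrays, 2628 to 2717 on HET arrays and 2145 to 2491 on WT arrays; Ccr7 was under the median of all 9). The 3 NK cell markers with a probe set and 3 of 5 T cell markers (Cd3g, Cd3d and Cd4) were under the median of all 9, and the T cell markers summed to 46.3 to 118 on KO arrays, 78.4 to 195 on HET arrays and 89.1 to 108 on WT arrays. The part of these other cells in the results on replication genes was not tested.

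KO vs WT asks how cells with 2 floxed Foxo1 alleles differ from cells with none. In KO cells the replication genes were close to their WT level: 3 of 43 fell and 40 did not pass the test. The 3 that fell were Pola1, the catalytic subunit of DNA polymerase alpha; Pold2, an accessory subunit of DNA polymerase delta; and Dut, the enzyme that keeps uracil out of DNA. Their KO means were 77.7%, 74.3% and 88.6% of WT. A gene counted as called at an adjusted p under 0.05 (limma, Benjamini-Hochberg over all tested genes). Of all tested genes 11.9% were called in either direction, and lower calls made up 5.83% of all tested genes against 6.98% of the members, so the number of members called was near the background. Limma called 0 members higher, with Tk1 alone at an unadjusted p under 0.05 on that side, while 6.1% of all tested genes were called higher. At an unadjusted limma p under 0.05 stood 12 of 43 members (11 lower and 1 higher) and 2658 of 10331 tested genes (1233 lower and 1425 higher). Counts at that level given by role below are to be read beside the share of the same direction.

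Small shifts below 0 were common. The log2 change was below 0 for 34 of 43 members, where 47.7% of all tested genes lay below 0. The median change was -0.07 over the members and 0.01 over all tested genes, and the median over the members ran from -0.13 (without KO replicate 2) to -0.05 (without KO replicate 3) when single arrays were left out. On 14 members (32.6%) every KO array lay below every WT array, against 13.5% of all tested genes; on 3 (Uhrf1, Rrm2 and Tk1) every KO array lay above, against 16.2%. These are descriptions of the list, with no test over it. All 43 members had a 95% interval (not adjusted for the number of genes) inside a 2-fold change in either direction, as had 89.9% of all tested genes, and 42 of 43 lay inside 0.5 on the log2 scale, as had 64.1%; the 1 that reached further was Pold2, whose interval ran from -0.67 to -0.17. The members were not matched to the other tested genes for signal strength, which limits this comparison of intervals. In a bulk sample, fewer cells in S phase and less RNA per cell cannot be told apart.

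The size of these changes and the number of calls depended on how the arrays were scaled. The authors' scaling gave every array the same trimmed mean, and the array medians then stood at 47.4 to 48.0 on KO arrays, 44.0 to 45.0 on HET arrays and 42.9 to 44.8 on WT arrays. With each array centred on its median over all probe sets, the median of all tested genes moved to -0.11 and the members' median to -0.19; such centring moves every gene of a comparison by the same amount, so the members' median stays 0.08 below that of all genes. The called genes then split into 397 higher and 1683 lower in KO, against 630 higher and 602 lower on the deposited scale, and 18 members were called lower and 0 higher, with 16.3% of all tested genes called lower and 3.84% higher. With quantile normalization the members' median was -0.04, 31 of 43 members lay below 0, and Pola1 and Pold2 were called lower, with 6.22% of all tested genes called lower and 5.51% higher.

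**Figure D1:**
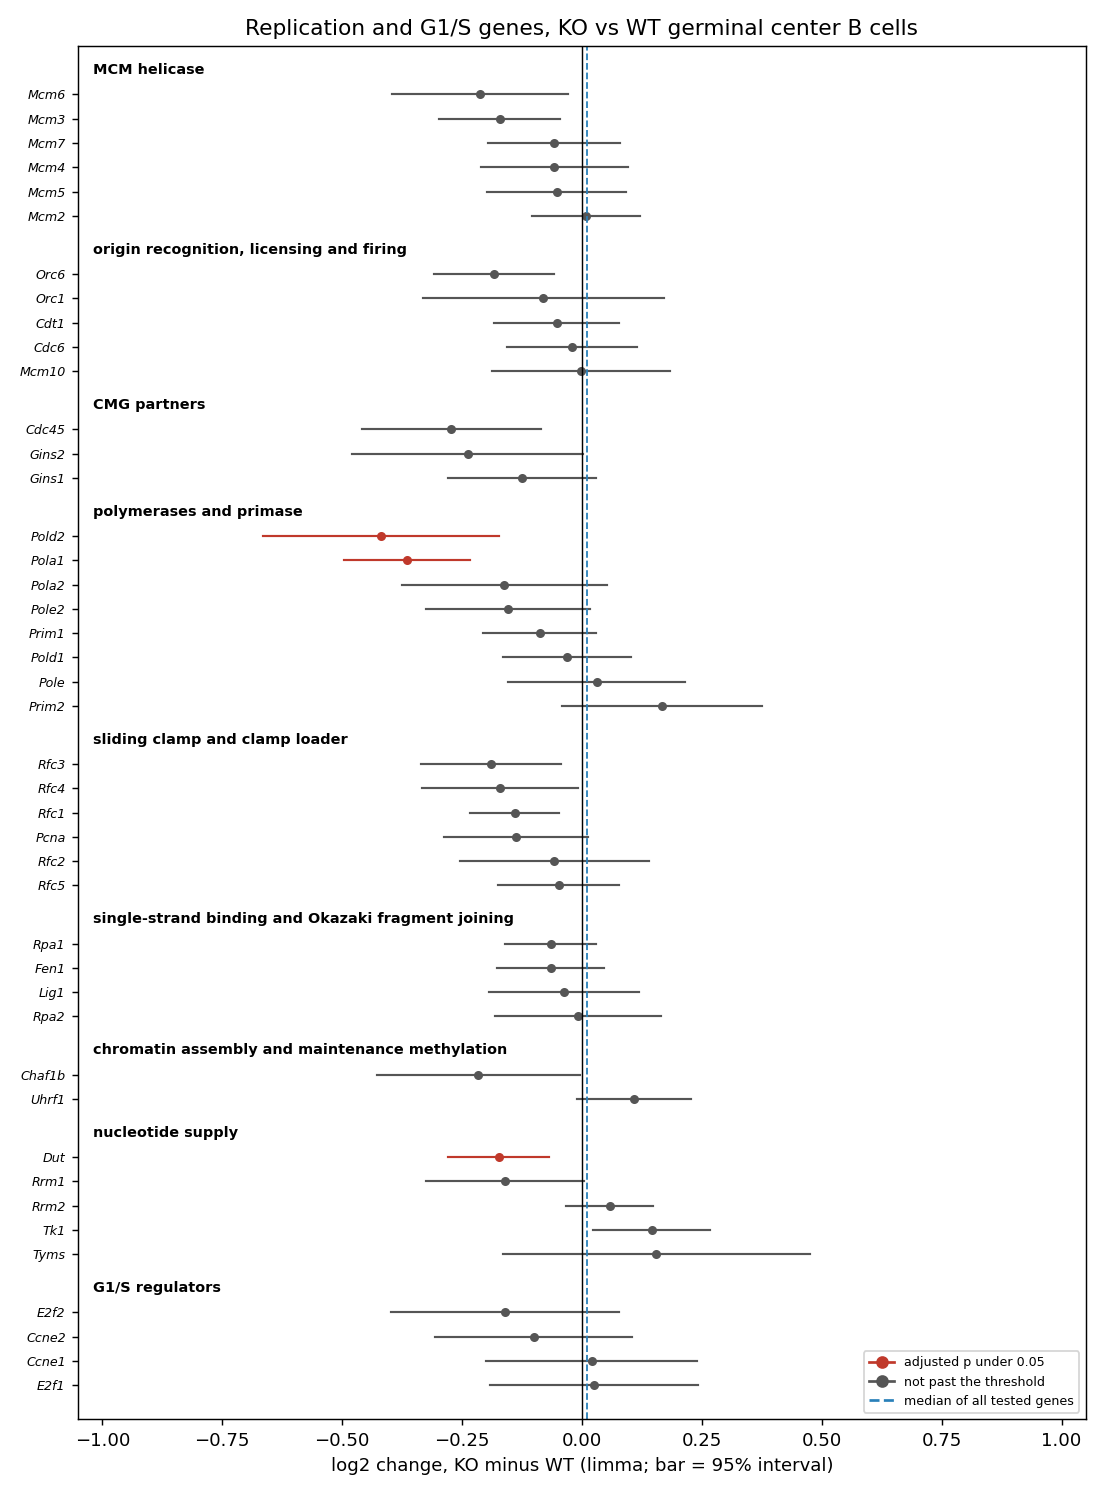
Log2 change of 43 replication and G1/S genes, KO minus WT, sorted by role; points are limma estimates, bars are unadjusted 95% intervals, and the dashed line is the median of all 10331 tested genes (0.01). Most points lie left of 0, Pola1, Pold2 and Dut (red) passed the threshold, and every interval lies inside a 2-fold change.

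Among the polymerases and primase 2 of 8 members were called lower in KO vs WT, with 5.83% of all tested genes called lower. Pola1 makes the first DNA stretch of every primer, and its gene lies on the X chromosome. Its signals were 2154, 2319 and 2337 on KO arrays, 2749.9, 2779 and 2546 on HET arrays and 2894, 2995 and 2878 on WT arrays. The genotypes formed 3 separate bands, with KO lowest and WT highest. On the log2 scale Pola1 fell by 0.36 in KO cells relative to WT (SE 0.06, 95% interval -0.50 to -0.23, limma adjusted p = 0.0019), and this call was kept in all 23 alternative settings. The animals differed in Xist, an X-linked RNA of female cells: its signal was high on 2 KO, 1 HET and 2 WT arrays. The change of Pola1 in KO vs WT was -0.39 among the arrays with high Xist (2 against 2) and -0.31 between the arrays with low Xist (1 against 1), values with no test.

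Pold2 had signals of 594, 622 and 542 on KO arrays, 674, 789 and 706 on HET arrays and 714, 729.5 and 922 on WT arrays. All KO arrays were below all others, and WT replicate 3 stood apart from the other WT arrays. Pold2 fell by 0.42 in KO vs WT (SE 0.11, limma adjusted p = 0.0311), but the call was lost without KO replicate 1 or 3 or WT replicate 2 or 3 (adjusted p = 0.0654, 0.0848, 0.0502 and 0.127) and when eBayes was run with no trend (adjusted p = 0.0587). The other 6 members of the role did not pass. They were Pola2, the regulatory subunit of polymerase alpha (log2 change -0.16), the primase genes Prim1 (-0.09) and Prim2 (0.17), the catalytic subunits Pold1 (-0.03) and Pole (0.03), and Pole2 (-0.16). Genes for subunits of 1 enzyme thus had different values: the interval of Pold1 (-0.17 to 0.10) lay above that of Pold2 (-0.67 to -0.17), and the interval of Pola1 (-0.50 to -0.23) overlapped that of Pola2 (-0.38 to 0.05). The difference between subunits was not tested.

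**Figure D2:**
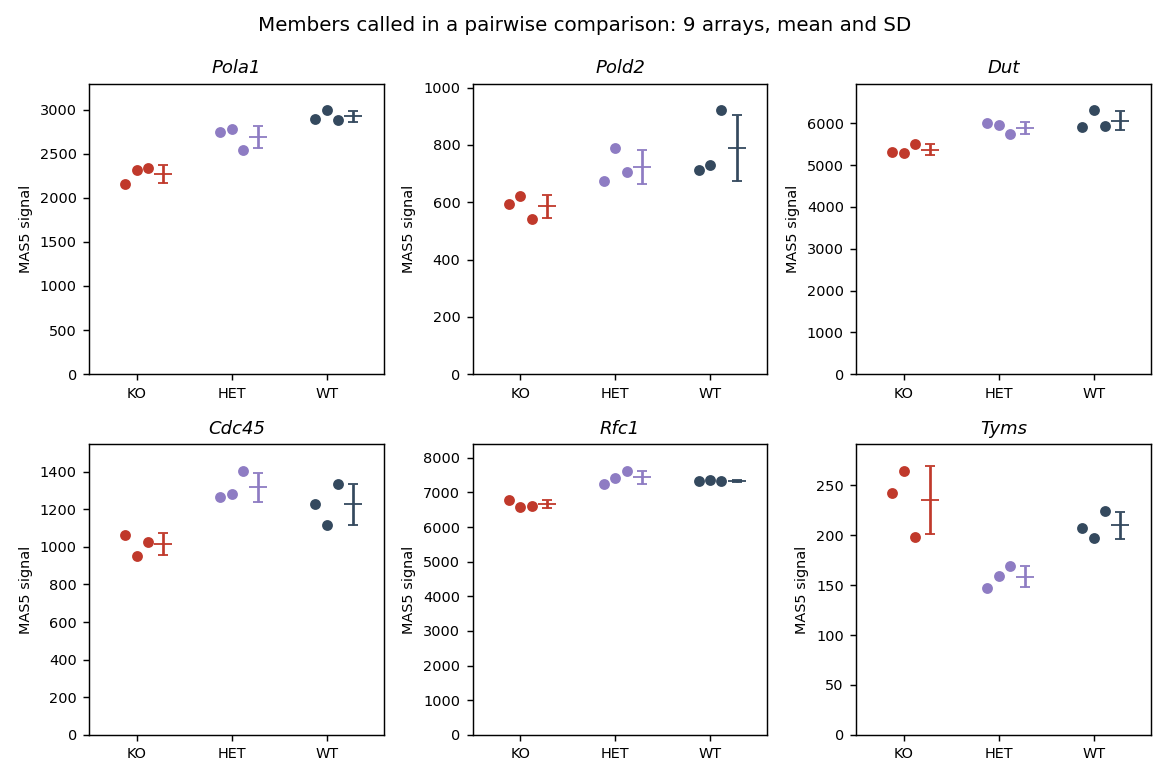
MAS5 signal of the 6 members called in at least 1 pairwise comparison (y axis from 0; points are single arrays, bars are mean and SD of 3 arrays) in KO, HET and WT cells. KO arrays lie below all HET arrays for Pola1, Pold2, Dut, Cdc45 and Rfc1, and above them for Tyms.

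The promoter windows of 4 members that were called in KO vs WT or KO vs HET are shown here, because E2F and FOXO factors are known to bind short DNA words. Sequences are RefSeq's for GRCm38.p6, from 250 bases before to 50 after the annotated start, written 5′ to 3′ along the gene's strand. Capitals mark the words searched, on both strands and with overlaps counted. One E2F word was TTCCCGC. Another E2F word was TTGGCGC, a further one TTCGCGC, and the last E2F word was TTGCCGC. The word searched for FOXO was TGTTTAC, and the word of the CCAAT box was searched as well. Pola1 lies at chrX:93632106-93632405 on the minus strand, Rfc1 at chr5:65335590-65335889 on the minus strand, Cdc45 at chr16:18811923-18812222 on the minus strand and the first listed start of Pold2 at chr11:5878207-5878506 on the minus strand.
Pola1: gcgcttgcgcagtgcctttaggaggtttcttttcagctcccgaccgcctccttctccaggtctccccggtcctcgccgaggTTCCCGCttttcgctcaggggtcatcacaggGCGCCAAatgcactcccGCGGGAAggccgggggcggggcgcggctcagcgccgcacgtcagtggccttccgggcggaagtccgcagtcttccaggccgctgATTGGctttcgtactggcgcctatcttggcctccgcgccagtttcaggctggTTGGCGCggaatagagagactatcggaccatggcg
Rfc1: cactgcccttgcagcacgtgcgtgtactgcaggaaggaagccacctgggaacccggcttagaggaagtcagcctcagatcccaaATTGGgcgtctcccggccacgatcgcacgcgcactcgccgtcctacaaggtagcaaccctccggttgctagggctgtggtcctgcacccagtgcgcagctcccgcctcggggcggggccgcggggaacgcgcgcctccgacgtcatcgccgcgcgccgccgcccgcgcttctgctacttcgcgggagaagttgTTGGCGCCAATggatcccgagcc
Cdc45: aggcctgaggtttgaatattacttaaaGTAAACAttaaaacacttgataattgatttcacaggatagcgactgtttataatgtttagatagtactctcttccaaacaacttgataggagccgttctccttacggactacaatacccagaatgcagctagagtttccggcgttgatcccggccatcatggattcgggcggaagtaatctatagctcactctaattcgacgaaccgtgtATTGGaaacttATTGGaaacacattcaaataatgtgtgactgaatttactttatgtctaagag
Pold2: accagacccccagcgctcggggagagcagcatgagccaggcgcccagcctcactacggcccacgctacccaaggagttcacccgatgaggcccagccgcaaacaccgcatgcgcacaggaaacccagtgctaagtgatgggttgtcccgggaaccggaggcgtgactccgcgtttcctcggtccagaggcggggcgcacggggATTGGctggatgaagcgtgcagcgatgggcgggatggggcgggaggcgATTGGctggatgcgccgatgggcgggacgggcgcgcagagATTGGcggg
The Pola1 window held 4 E2F words, at 169, 138 and 121 bases before the start and at base 16 after it, and a CCAAT word on the opposite strand 37 bases before. In Rfc1 the run TTGGCGCCAAT holds 2 overlapping E2F words on opposite strands and an overlapping CCAAT word. Cdc45 held no E2F word in this window but a FOXO word 223 bases before the start and 2 CCAAT words, and Pold2 held 3 CCAAT words. No word of these kinds was in the windows of Dut and Tyms. Of 37 listed genes with a promoter in the table, 23 (62.2%) held an E2F word, against 10.9% of 27025 genes, and 22 (59.5%) held CCAAT, against 41.1%. A FOXO word was in 2 of 37 (5.41%, Cdc45 and Mcm7), against 4.05% of all genes. A match is a description of letters and not a bound site, and a window with no match says nothing of the factor.

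The MCM helicase, loaded as a ring of MCM2 to MCM7 on origins, had 0 of 6 genes called by limma in KO vs WT, with Mcm3 and Mcm6 at an unadjusted p under 0.05. Mcm3 had signals of 5362, 5385 and 5327 on KO arrays, 5435, 5699 and 5329 on HET arrays and 5589.5, 6022 and 6529 on WT arrays. The KO arrays were nearly alike and all below WT, while KO and HET arrays overlapped. The change was -0.17 (SE 0.06, limma adjusted p = 0.0783), and its 4 other probe sets above the filter gave -0.02, -0.38, -0.11 and 0.10. Mcm6 had signals of 5738, 5526 and 4556 on KO arrays, 5432, 6142 and 6273 on HET arrays and 5952, 6455 and 5843 on WT arrays. KO replicate 3 was the lowest and all KO arrays were below all WT arrays (log2 change -0.21, SE 0.08, limma adjusted p = 0.132). Its other probe set above the filter gave -0.31 and was called when probe sets with shared suffixes were left out (adjusted p = 0.00948), and Mcm6 was also called with the mean of both (adjusted p = 0.0365). Mcm2 (0.01), Mcm4 (-0.06), Mcm5 (-0.05) and Mcm7 (-0.06) did not pass. Of 3 other Mcm7 probe sets above the filter, 2 gave -0.22 and -0.18, each with all KO arrays below all WT and all HET arrays, and 1 gave -0.07, while the other probe sets of Mcm2, Mcm4 and Mcm5 gave -0.12 for Mcm2, -0.11 for Mcm4, and -0.10 and -0.24 for Mcm5, each with KO and WT arrays overlapping.

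Origin recognition and licensing genes gave 0 calls among 5 members by limma, with Orc6 at an unadjusted p under 0.05. Orc6, the smallest subunit of the origin recognition complex, had signals of 2959.6, 2904 and 3099 on KO arrays, 3143, 3321 and 3354 on HET arrays and 3412, 3538 and 3229 on WT arrays. All KO arrays were below all others. The change of -0.18 (SE 0.06) missed the threshold (limma adjusted p = 0.0608) and was called in 4 of 23 alternatives, under either median centring, with the mean of probe sets and with array weights (adjusted p = 0.00386 to 0.0482). Cdt1, a loader of the helicase, had signals of 6386, 5828 and 6012 on KO arrays, 5733, 6158 and 6639.9 on HET arrays and 6300.2, 6091 and 6508 on WT arrays, and the genotypes overlapped (log2 change -0.05, SE 0.06, limma adjusted p = 0.644). The loader Cdc6 (-0.02), Orc1 (-0.08) and Mcm10 (-0.0014), which helps the helicase start, did not pass either. The other Orc1 probe set above the filter gave 0.29, with KO and WT arrays overlapping.

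CDC45 and GINS join the MCM ring to form the running helicase, and limma called 0 of their 3 genes in KO vs WT, with Cdc45 at an unadjusted p under 0.05. Cdc45 had signals of 1065, 952 and 1024 on KO arrays, 1266, 1279 and 1404 on HET arrays and 1229, 1115 and 1335 on WT arrays. The KO arrays lay below all others, and HET and WT arrays overlapped. The change was -0.27 in KO vs WT (SE 0.09, limma adjusted p = 0.0601). A dimmer Cdc45 probe set went the other way (log2 change 0.44, mean signal 213.9 in KO and 155.6 in WT), with all KO arrays above all WT arrays, and with the mean of both probe sets the KO vs WT change was 0.086 (adjusted p = 0.65), so the direction of Cdc45 rests on the choice of probe set. Gins2 had signals of 1149, 896 and 884 on KO arrays, 1057, 1125 and 953 on HET arrays and 1074, 1253 and 1110.1 on WT arrays, where KO replicate 1 reached into the WT range (log2 change -0.24, SE 0.11, limma adjusted p = 0.2). Without KO replicate 1 it was called lower (log2 change -0.36, adjusted p = 0.0457). Gins1 had a change of -0.12.

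For the clamp PCNA and its loader RFC, 6 of 6 changes lay below 0 (median -0.14) and limma called 0, with Rfc1, Rfc3 and Rfc4 at an unadjusted p under 0.05. Rfc1, the large subunit of the loader, had signals of 6786, 6575 and 6617 on KO arrays, 7243, 7430.0 and 7627 on HET arrays and 7322, 7367 and 7327 on WT arrays. KO arrays were below all others, with HET and WT overlapping. The change of -0.14 in KO vs WT (SE 0.04) was just outside the threshold (limma adjusted p = 0.0519), and its 2 other probe sets gave -0.38 and -0.50, each with all KO arrays below all WT and all HET arrays. Averaged over its 3 probe sets the change was -0.34 and called (adjusted p = 0.00824). Rfc3 had signals of 1920.3, 1790.1 and 1890.0 on KO arrays, 1972, 2082 and 1889 on HET arrays and 2021, 2253 and 2117 on WT arrays. KO arrays were all below WT, while 1 HET array fell within the KO range (log2 change -0.19, SE 0.07, limma adjusted p = 0.0911). Rfc4 (-0.17), Rfc2 (-0.06), Rfc5 (-0.05) and Pcna itself (-0.14, adjusted p = 0.234) did not pass. Other probe sets above the filter gave -0.29 for Rfc3, -0.19 for Rfc4, and -0.03 and 0.04 for Rfc2.

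The genes for single-strand DNA binding and for joining Okazaki fragments, the short pieces of the lagging strand, had 4 changes between -0.07 and -0.01; limma called 0, with 0 at an unadjusted p under 0.05. Rpa1, the large subunit of replication protein A, had signals of 10248, 10229.6 and 10199 on KO arrays, 10717, 10614 and 10731 on HET arrays and 10327, 10465 and 11334 on WT arrays. The KO arrays were the lowest, by a small margin (log2 change -0.07, SE 0.04, limma adjusted p = 0.386). Fen1, the flap nuclease, had signals of 8543, 8879.7 and 8718 on KO arrays, 9055, 8949 and 9009 on HET arrays and 8720.2, 8781 and 9894 on WT arrays, with KO and WT overlapping (log2 change -0.07, interval -0.18 to 0.05, limma adjusted p = 0.471). Ligase gene Lig1 had a change of -0.04 and Rpa2 of -0.01. Dimmer probe sets above the filter gave -0.15 for Rpa1 and -0.08 for Fen1, each with all KO arrays below all WT and all HET arrays. That of Rpa2 gave -0.23, with KO and WT arrays overlapping.

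The 2 chromatin genes lay on either side of 0, and neither passed. Chaf1b, a subunit of the histone chaperone that rebuilds nucleosomes behind the fork, had signals of 704, 746 and 622 on KO arrays, 699.9, 838 and 739 on HET arrays and 794, 824 and 783 on WT arrays. KO arrays were all below WT (log2 change -0.22, SE 0.10, limma adjusted p = 0.185). Uhrf1, which guides DNMT1 to newly copied DNA, had signals of 7497, 7499 and 7845 on KO arrays, 6541, 7391 and 7340.0 on HET arrays and 6833, 7094 and 7255 on WT arrays. KO arrays were above all others (log2 change 0.11, SE 0.05, limma adjusted p = 0.236), but with each array centred on its median over all probe sets the change was -0.011. A dimmer Uhrf1 probe set above the filter gave 0.09 in KO vs WT and -0.08 in KO vs HET, with arrays overlapping in both comparisons.

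Of the 5 nucleotide supply genes 1 fell (5.83% of all tested genes did) and 3 had changes above 0 that did not pass, with a median change of 0.06. Dut had signals of 5312, 5294 and 5515 on KO arrays, 6005, 5959 and 5735 on HET arrays and 5921, 6319 and 5946 on WT arrays. All KO arrays were below all others. Dut fell by 0.17 in KO vs WT (SE 0.05, limma adjusted p = 0.0355), but the call was lost in 11 of 23 alternatives (adjusted p up to 0.899). Among them were 5 fits that left out 1 array: without KO replicate 1 or 2, HET replicate 2, or WT replicate 1 or 2 (adjusted p = 0.099, 0.101, 0.0514, 0.058 and 0.14). Its other probe set above the filter gave -0.03. Tk1, the thymidine kinase of S phase, had signals of 2932, 2884 and 2964 on KO arrays, 2530.4, 2736 and 2543 on HET arrays and 2589, 2676 and 2671 on WT arrays. KO arrays were above all others (log2 change 0.15, SE 0.06, limma adjusted p = 0.118), and the change was 0.03 with array median centring. The ribonucleotide reductase genes differed in sign, with -0.16 for the large subunit Rrm1 (adjusted p = 0.206) and 0.06 for the S-phase subunit Rrm2 (adjusted p = 0.427). The 2 other probe sets of Rrm1 gave 0.38 and -0.28, and those of Rrm2 gave -0.10 and -0.09.

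The regulators that open S phase gave 0 calls among 4 members by limma and 0 at an unadjusted p under 0.05. E2f2, an activating E2F, had signals of 1484, 1865 and 1669.7 on KO arrays, 2081, 1619 and 1793 on HET arrays and 1764, 1744 and 2094 on WT arrays, with all genotypes overlapping (log2 change -0.16, interval -0.40 to 0.08, limma adjusted p = 0.398). Ccne2, which encodes cyclin E2, had signals of 1076, 1241 and 1010.3 on KO arrays, 933, 1090.1 and 959 on HET arrays and 1255, 1131 and 1173 on WT arrays. The HET arrays were all below WT, and KO overlapped both (log2 change -0.10 in KO vs WT, limma adjusted p = 0.559). By their brightest probe sets E2f1 (0.03, interval -0.19 to 0.24) and Ccne1, which encodes cyclin E1 (0.02, interval -0.20 to 0.24), were near 0, and these intervals do not show that the levels were alike. The other E2f1 probe set above the filter gave -0.19, with all KO arrays below all WT arrays. Those of Ccne1 and E2f2 gave 0.18 and -0.10, with KO and WT arrays overlapping.

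KO vs HET asks what the loss of the second allele adds; it shares its KO arrays with KO vs WT. In KO cells Cdc45, Pola1 and Rfc1 fell relative to HET cells and Tyms rose, and 39 of 43 members did not pass (8.99% of all tested genes were called, 4.43% lower and 4.56% higher). Cdc45 fell by 0.38 (SE 0.09, limma adjusted p = 0.0172), to 1014 ± 57.3 in KO cells, against 1317 ± 76.1 in HET cells (SD, n = 3 each); averaging its 2 probe sets gave 0.054 (adjusted p = 0.801), and the call was lost without KO replicate 2 or HET replicate 3 (adjusted p = 0.0613 and 0.0684). Pola1 fell by 0.25 (SE 0.06, limma adjusted p = 0.0253), a call lost without KO replicate 1 or HET replicate 1 or 2 (adjusted p = 0.0867, 0.0797 and 0.0983), when eBayes was run with no trend, and when KO and HET were fitted alone (adjusted p = 0.059 in both). Rfc1 fell by 0.16 (SE 0.04, limma adjusted p = 0.0372), a call lost in 11 of 23 alternatives, 8 of which left out 1 array (every array but WT replicate 3, adjusted p = 0.0532 to 0.128). The 2 other Rfc1 probe sets gave larger changes of -0.29 and -0.48 in KO vs HET, each with all KO arrays below all HET arrays.

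Tyms, thymidylate synthase, was the only member called higher in a comparison. Its signals were 243, 264 and 199 on KO arrays, 148, 159 and 169 on HET arrays and 208, 197 and 224 on WT arrays. HET arrays were the lowest, and KO and WT arrays overlapped. Tyms was higher in KO than in HET (log2 change 0.56, SE 0.15, limma adjusted p = 0.0347), while its change in KO vs WT was 0.16 (adjusted p = 0.564). The KO vs HET call was lost in 12 of 22 alternatives, 6 of which left out 1 array (KO replicate 1 or 2, any HET replicate, or WT replicate 1; adjusted p = 0.0505 to 0.125), and also under array median centring and quantile normalization (adjusted p = 0.0623 and 0.0878). Over all members the KO vs HET median was -0.02, against 0.01 over all tested genes, and 27 of 43 lay below 0, against 47.8%. On 10 members (23.3%) all KO arrays were below all HET arrays, against 13.1% of all tested genes, and on 4 (9.3%) above, against 14.5%. Of the 43 intervals, 40 lay inside 0.5 on the log2 scale, as did 65.1% over all tested genes. The median was 0.0042 without KO replicate 3 and 0.00031 with quantile normalization, so the sign of the KO vs HET median was not stable. With array median centring 6 members were called lower and 0 higher (10.4% and 2.85% of all tested genes), and with quantile normalization Cdc45 and Pola1 were called lower (4.72% of all tested genes).

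HET vs WT asks what 1 floxed allele does; it shares arrays with both other comparisons. Limma called 0 of 43 members, here and in all 23 alternatives. An unadjusted p under 0.05 was found for 4 members (Mcm3, Orc1, Tyms and Ccne2) and for 432 of 10331 tested genes. In all, 0% of the tested genes were called lower and 0.00968%, which is 1 gene, higher. The changes of those 4 members were -0.14, -0.30, -0.40 and -0.26 (limma adjusted p = 0.998 for each). For Mcm3 the other probe sets above the filter did not move alike. Their means were 3078, 1778, 556 and 5159 in HET cells and, in that order, 3063, 1999.7, 533 and 4489 in WT cells. Orc1, the largest subunit of the origin recognition complex, had signals of 339.6, 343 and 303 on KO arrays, 279, 286 and 277 on HET arrays and 354, 313 and 377 on WT arrays, with the HET arrays lowest. A dimmer Orc1 probe set above the filter did not show this, with means of 114.5 in HET cells, 116.5 in WT cells and 142.4 in KO cells. The changes of 36 of 43 members lay below 0, against 49.2% of all tested genes, with a median of -0.05 against 0.00. For 5 members (11.6%) the highest HET array was under the lowest WT array (Orc1, Cdc6, Pola1, Tyms and Ccne2), against 4.88% of all tested genes, and on 0 members above, against 4.95%. All 43 intervals lay inside a 2-fold change, as did 94.8% over all tested genes.

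The median position of the list differed between arrays. The median deviation of the members from their mean over 9 arrays was -0.002, -0.003 and -0.082 on the KO arrays, -0.048, 0.010 and 0.014 on the HET arrays, and 0.024, 0.060 and 0.074 on the WT arrays. The lowest array was thus a KO array, the next a HET array, and the top 2 were WT arrays, while KO replicates 1 and 2 lay within the HET range. KO replicate 3 held the lowest signal of the 9 arrays for 14 members and HET replicate 1 for 11, while WT replicate 3 held the highest for 12 and WT replicate 2 for 11. Over all tested genes the array medians of the median deviation stayed between -0.013 and 0.024. A median over so many genes, on arrays scaled to a common trimmed mean, varies less than a median over 43 genes. These ranges therefore do not show whether the members moved more than other genes. The median of the mitosis genes ran from -0.098 to 0.096. Xist signal was low on KO replicate 3, HET replicates 1 and 2 and WT replicate 1. KO and WT thus had the same split (2 arrays high and 1 low), while HET had 1 high and 2 low. The members' KO vs WT median was -0.06 among high-Xist arrays and -0.10 between low-Xist arrays, and in KO vs HET -0.02 and -0.06. The part of Xist in the position of the list was not tested. The members varied less within a genotype than other genes. Their median SD between arrays was 0.07 in KO, 0.08 in HET and 0.08 in WT on the log2 scale, against 0.12, 0.11 and 0.11 over all tested genes. All 43 members were above the array median on all 9 arrays, which the filter asked for on only 3. The genes compared were not matched for signal strength, and no test was made of the difference in SD.

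**Figure D3:**
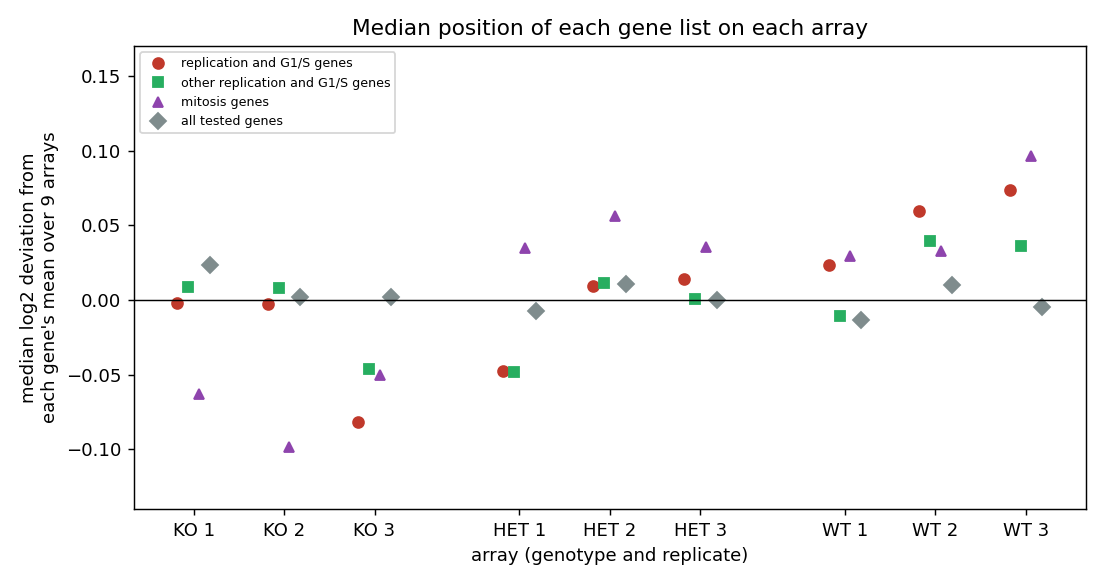
Median log2 deviation of each gene list from its genes' means over the 9 arrays, by array; circles are the 43 members, squares 89 further replication and G1/S genes, triangles 35 mitosis genes and diamonds all tested genes. The mitosis genes are below 0 on all 3 KO arrays and above 0 on the 6 others, while the members are clearly below 0 on KO replicate 3 and HET replicate 1 (-0.082 and -0.048).

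Probe sets of a gene did not always move alike. Of the members, 31 had further probe sets above the filter, 43 in all, and 31 of these 43 had the same sign in KO vs WT as the brightest. The brightest probe set of 20 members carries a suffix (_s_at, _x_at or _a_at) that marks probes shared by several transcripts or by related sequences. With such probe sets left out, 39 members could be tested, their median was -0.11, and 32 of 39 lay below 0.

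Outside the members, a list of 91 other replication and G1/S genes was read the same way, of which 89 were tested. In KO vs WT 8 fell (8.99%, against 5.83% of all tested genes), 1 rose (1.12%, against 6.1%) and 80 did not pass, with a median change of -0.03. Among 23 regulators of G1/S, 2 inhibitor genes were called, in opposite directions. Cdkn1a, which encodes the cell cycle inhibitor p21, had signals of 337, 296 and 557 on KO arrays, 237, 142 and 192 on HET arrays and 176, 166 and 191 on WT arrays. All KO arrays were above the others, and KO replicate 3 stood well above the other KO arrays. Cdkn1a rose by 1.09 in KO vs WT (SE 0.23, limma adjusted p = 0.00862) and by 1.03 in KO vs HET (adjusted p = 0.0156), and the KO vs WT call was kept in all 22 alternatives that tested it. Cdkn1b, which encodes the inhibitor p27 and is a known FOXO target, had signals of 967, 858 and 841 on KO arrays, 1069, 1349.6 and 1248 on HET arrays and 1346, 1180.0 and 1213 on WT arrays. KO arrays were below all others, and Cdkn1b fell by 0.49 in KO vs WT (SE 0.10, limma adjusted p = 0.00677).

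Of the histone supply genes 2 of 8 fell in KO vs WT, with 5.83% of all tested genes called lower. Asf1a, a histone chaperone, had signals of 2846, 2859 and 2911 on KO arrays, 3069.6, 3235 and 3459 on HET arrays and 3422, 3645 and 3635 on WT arrays. KO arrays were below all others, with the HET arrays reaching into the WT range (log2 change -0.31, SE 0.06, limma adjusted p = 0.00428, called in all 23 alternatives). Nasp, a histone carrier, fell by 0.17 (adjusted p = 0.0358), but its change was 0.42 when probe sets with such suffixes were dropped (adjusted p = 0.0956). The translesion polymerase gene Poli fell to 598 ± 68.6 in KO cells, against 821 ± 55.3 in WT cells (SD, n = 3 each; log2 change -0.46, limma adjusted p = 0.00912). Rrm2b, the p53-linked subunit of ribonucleotide reductase, fell by 0.21 (limma adjusted p = 0.0328) and Rpa3, the small subunit of replication protein A, by 0.23 (adjusted p = 0.035). With 1 array left out, the call of Nasp was lost for any KO or WT array, that of Rrm2b for any KO array or WT replicate 1 or 3, and that of Rpa3 for KO replicate 1 or 2 or WT replicate 2 or 3 (highest adjusted p = 0.123, 0.0797 and 0.117). The other 2 called genes of the list were Dbf4 and Rnaseh2a, with calls lost in 13 of 23 and 12 of 22 alternatives. Of 9 S-phase checkpoint genes limma called 0, with 4 at an unadjusted p under 0.05 (1 lower and 3 higher), against 2658 of 10331 tested genes (1233 lower and 1425 higher). Their median change was 0.09, and 2 of 9 changes lay below 0. In KO vs HET 6 genes of the list fell (6.74%, against 4.43% of all tested genes) and 2 rose (2.25%, against 4.56%). The median change of the list in KO vs HET was 0.01, and 40 of 89 changes lay below 0 (44.9%, against 47.8% of all tested genes). In HET vs WT limma called 0 of 89, with 4 at an unadjusted p under 0.05, against 432 of 10331 tested genes.

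**Figure D4:**
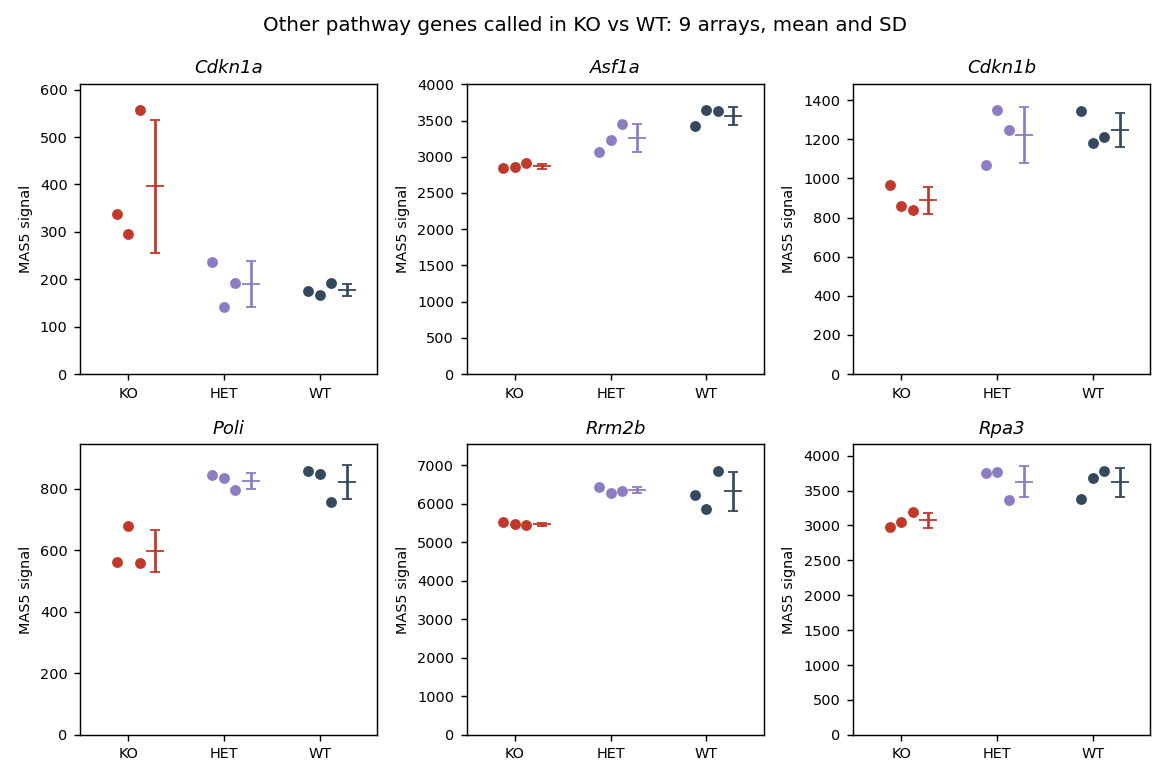
MAS5 signal of 6 further pathway genes called in KO vs WT (y axis from 0; points are single arrays, bars are mean and SD of 3 arrays) in KO, HET and WT cells. Cdkn1a is higher on all 3 KO arrays, with KO replicate 3 at 557, and the other 5 are lower on all 3 KO arrays than on any WT array.

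The genes of mitosis, which follows S phase and G2, were set beside the members. Of 36 listed genes 35 were tested. In KO vs WT 8 of 35 fell (22.9%, with 5.83% of all tested genes called lower) and 27 did not pass, and all 35 changes were below 0, with a median of -0.11. Every KO array lay below every WT array for 15 of them (42.9%), against 32.6% of the replication genes and 13.5% of all tested genes. Ccna2, which encodes cyclin A2 and works in S phase as well as in G2, fell by 0.47 (SE 0.05, limma adjusted p = 1.38e-04), and Cdc25b fell by 0.38 (SE 0.05, adjusted p = 5.98e-04). In KO vs HET the mitosis median was -0.12 and the members' median -0.02, while in HET vs WT they were -0.02 and -0.05. The difference between both lists was not tested.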

How the data were processed

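The deposited values were linear MAS5 intensities, with MAS5 named as the authors' tool per the submitters' processing notes; its version and scaling target are not given in the sources used here. With 2% of values trimmed from either tail, each array had a mean of 500.002. RNA was amplified and biotin-labelled with NuGEN kits, per the labels' protocols. Of 45101 probe sets, 64 were controls, 34945 had 1 gene symbol in the platform annotation, 932 several and 9160 none.

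Signals were analysed as log2(signal + 2.09), where 2.09 is the 10th percentile of all signals, so changes of dim genes are understated. The filter asked for a signal at or above the array median on 3 or more of the 9 arrays (19479 probe sets passed), and the passing probe set of highest mean stood for its gene. Limma 3.58.1 (lmFit, eBayes with trend) in R 4.3.3 was fitted over all 9 arrays and 10331 genes, with two-sided tests and Benjamini-Hochberg adjustment over all genes of a comparison; every adjusted p is limma's. Intervals are at 95% and unadjusted. For arrays, their number limits the precision. Values on every array are given for members called in any comparison and for the 2 members of each role with the smallest KO vs WT p; those of Orc1 were added after its values were seen. From the other pathway genes those called in KO vs WT were named, up to 6 each way; further names, and the choice of 4 promoters, followed the values. Members, lists and tests were chosen with earlier results of these data known. Correlations between arrays over log2 signals were 0.984 to 0.990 within genotypes and 0.974 to 0.990 between them. Promoters were searched with Python 3.11.15. Alternatives covered offset, scaling, filter, choice of probe sets, variance model, array weights, samples fitted, an Xist block and single arrays left out. Some listed genes were not analysed here.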

Additional observations from a re-analysis of the deposited data

How the results depend on the processing

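The counts of calls, the members' medians and the changes of the called members, of the 2 members of each role with the smallest p and of the pathway genes called in KO vs WT were recomputed under 13 other settings, 9 fits that left out 1 array, and centring on the median of the tested genes, which was chosen after seeing the data; a gene that a setting did not test has 1 setting fewer. Other genes, those of mitosis included, were not followed. No paired analysis was made because the sample titles carry a different number for every array and name no pairs. The replicate numbers used here do not link arrays across genotypes. In KO vs WT, 1232 genes were called, and 2080 with array median centring; leaving out 1 array gave 768 to 1183, the lowest being 768 and 770 for WT replicates 3 and 2. The 3 called members became 18 with array median centring, 6 with the mean of probe sets, 5 with tested-gene median centring and 1 in eBayes without trend, and 2 to 4 with 1 array left out. The members' median of -0.07 was -0.19 with array median centring and -0.11 without shared-suffix probe sets, and -0.127 to -0.050 with 1 array left out. In KO vs HET, 929 genes were called, and 543 to 895 with 1 array left out (543 and 606 for HET replicates 2 and 3); the 4 called members became 2 with quantile normalization, no filter, the mean of probe sets, eBayes without trend or only both groups fitted, and 1 to 4 with 1 array left out (1 without KO replicate 1 or 2 or any HET replicate, 2 without WT replicate 1). The KO vs HET median of -0.02 was -0.12 with array median centring and -0.051 to 0.0042 with 1 array left out. In HET vs WT the 1 called gene became 3 with robust eBayes, array weights or only both groups fitted, and 1 to 3 with 1 array left out (2 without KO replicate 3 or WT replicate 3, 3 without HET replicate 2); the median of the members lay between -0.07 and -0.02. With array median centring 40 of 43 members lay below 0 in KO vs WT, against 34 as deposited. Among the genes followed, the sign of the change reversed in KO vs WT for Cdt1 (0.0077 without shared-suffix probe sets), Uhrf1 (-0.011 with array median centring), Cdc45 (0.086 with the mean of probe sets) and Nasp (0.13 with the mean of probe sets and 0.42 without shared-suffix probe sets), and in KO vs HET for Cdc45 (0.054 with the mean of probe sets). The cause of these moves was not tested.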
